A study of Mus musculus with 24 samples.

Results

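Ileal fragments treated with tCDCA, the taurine conjugate of chenodeoxycholic acid, were compared with fragments given the solvent DMSO. The members were chosen by sample title: tCDCA replicates 1 to 4 and DMSO replicates 2 to 4, 7 of the 24 libraries of the series. DMSO replicate 1 was left out because its label gives 0.5% DMSO, against 0.6% in DMSO replicates 2 to 4, and marks it as removed. The label of tCDCA replicates 2 to 4 gives 200 µM, and that of tCDCA replicate 1 gives no dose. Every fragment came from the ileum of a wild-type male C57BL/6J mouse starved for 4 h and was kept for 8 h in Advanced DMEM/F12 with antibiotics, HEPES and GlutaMAX. The other groups received bile acid extracts labelled wild-type (WT) or Asbt-/-, in forms written CME(-) and CME(+). Both CME(-) extracts, with 200 µM on the labels of their replicates 2 to 4, serve below as further points of comparison (4 WT and 3 Asbt-/- libraries). The treatment label of Asbt-/- CME(-) replicate 2 has CAM(-) where its title has CME(-). Whether replicates came from different mice is not labelled, so the p-values may reflect technical spread only.

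Ileal enterocytes take up conjugated bile acids through Asbt, the carrier encoded by Slc10a2, bind them inside the cell with Fabp6, and export them to the blood through a carrier made of the Slc51a and Slc51b subunits. Chenodeoxycholic acid and its conjugates are ligands of FXR, the nuclear receptor encoded by Nr1h4. FXR drives Fgf15, a hormone that travels to the liver and restrains bile acid synthesis there. The same enterocytes carry a brush border of microvilli, set with the enzymes and carriers that finish digestion and absorb sugars, peptides and fats.

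The libraries are counts of 3' tags per gene, and levels are given as CPM, counts scaled to a common library total, after TMM scaling. The 7 libraries held 3.02 to 5.6 M counts. Of these, 1.96 to 4.99 M lay outside mitochondrial rRNA and 1 abundant identifier with no symbol. Mitochondrial rRNA took 7.69, 33.14, 5.29 and 28.14% of the counts in tCDCA replicates 1 to 4, and 29.17, 34.6 and 19.46% in DMSO replicates 2 to 4. Column prefixes divide the libraries into a first run, to which tCDCA replicate 1 belongs, and a second run, to which the other 6 belong. Run was therefore a term of the model. Its size came from tCDCA and the extract groups, which have libraries in both runs, and the DMSO libraries used add nothing to it. Replicates of a group correlated across genes at r = 0.884 to 0.939. A model of sample quality gave tCDCA replicate 3 the lowest weight of the 21 libraries fitted, 0.41, so results that rest on it are given without it. The tissue label was checked on 4 genes: the epithelial genes Vil1 and Cdh1 were at 202 to 585 and 605 to 884 CPM, and the ileal genes Fabp6 and Slc10a2 at 2622 to 7544 and 94.9 to 657 CPM. Markers of colon summed to at most 3.39 CPM in any of these libraries.

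Between tCDCA and DMSO 746 of 13125 tested genes were called at an edgeR adjusted p under 0.05, which is 5.68%. Of the genes tested, 2.52% (331) were higher and 3.16% (415) lower with tCDCA. At least a 2-fold difference was seen in 138 of the higher and 223 of the lower genes. The count dropped to 327 without DMSO replicate 3 and to 496 without tCDCA replicate 4. Of the 746 genes, 252 passed whichever 1 of the 7 libraries was left out, 80 of them higher and 172 lower. Unless a library is named beside it, each gene said below to rise or fall is one of these 252.

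**Figure D1:**
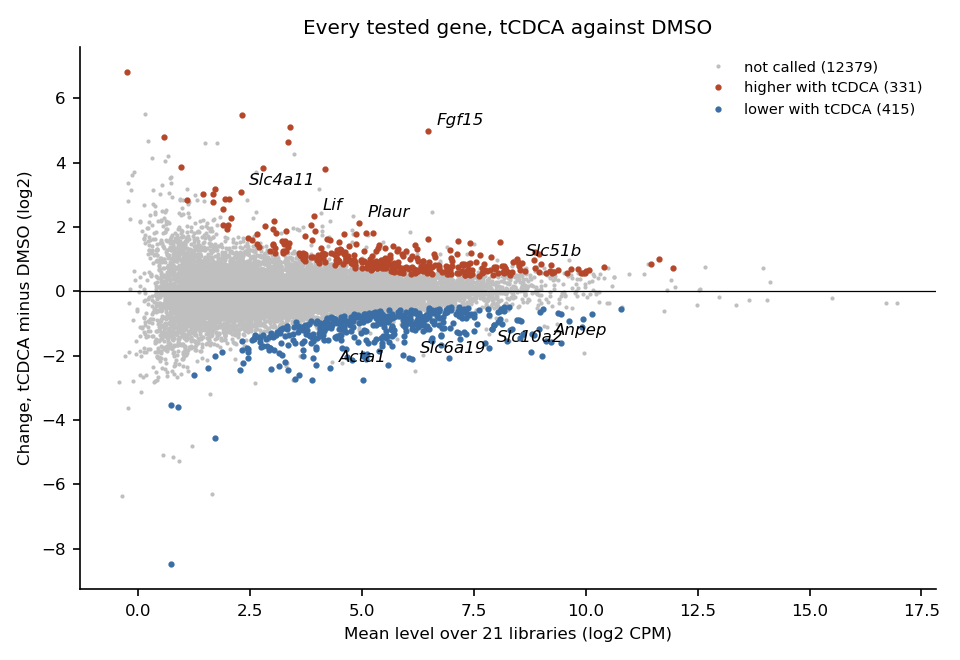
Every tested gene by its mean level over 21 libraries (x axis, log2 CPM) and its change, tCDCA minus DMSO (y axis, log2). Coloured points passed an edgeR adjusted p of 0.05, with 331 genes above and 415 below zero, and Fgf15 stands far above other genes of its level.

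The bile acid response centred on Fgf15. Its transcript stood at 265, 174, 272 and 249 CPM in tCDCA replicates 1 to 4, against 7.94, 5.94 and 7.2 CPM in DMSO replicates 2 to 4. The groups were far apart, and the removed first-run DMSO library, at 10.9 CPM, sat with the other DMSO libraries. Fgf15 rose 31.6-fold (4.98 ± 0.38 on the log2 scale, ± SE here and below, edgeR adjusted p = 2.89e-07). Slc51b, 1 subunit of the exporter, was at 464, 307, 479 and 428 CPM with tCDCA, against 247, 171 and 196 CPM with DMSO, and rose 1.87-fold (0.91 ± 0.20, edgeR adjusted p = 0.00289). Every tCDCA library was above every DMSO library, although the removed DMSO replicate 1, at 286 CPM, came near the lowest of them. Its partner Slc51a was at 250.5, 233, 413 and 379 CPM, against 246, 182 and 256 CPM. These ranges overlapped, and the difference of 0.53 ± 0.21 did not pass (edgeR adjusted p = 0.159). Fabp6 was at 7544, 2622, 6664 and 3203 CPM with tCDCA, against 4032, 2973 and 4252 CPM with DMSO. The tCDCA libraries scattered on both sides of the DMSO libraries, at 0.13 ± 0.22 log2 units (edgeR adjusted p = 0.846).

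The uptake carrier gene Slc10a2 moved the other way. It was at 94.9, 168, 104 and 162 CPM with tCDCA, against 657, 405 and 540.1 CPM with DMSO, and fell by 1.77 ± 0.22 log2 units, 3.42-fold (edgeR adjusted p = 6.37e-06). The 7 libraries did not overlap. In the first run the distance was smaller, with 94.9 CPM in tCDCA replicate 1 against 184 CPM in the removed DMSO replicate 1. Abcg2, an apical efflux pump gene, fell 1.61-fold (-0.69 ± 0.15, edgeR adjusted p = 0.00368), from libraries at 111 to 145 CPM with tCDCA against 196 to 208 CPM with DMSO. Abcc2, another apical pump gene, was at 14.6, 106, 34.2 and 52.4 CPM, against 145, 127 and 98.8 CPM, where 1 tCDCA library lay inside the DMSO range. Its call (-0.89 ± 0.24, edgeR adjusted p = 0.0274) was lost without DMSO replicate 2 or 3 or tCDCA replicate 3 or 4, where the edgeR adjusted p was 0.114, 0.109, 0.0618 and 0.099.

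Of 11 tested FXR target genes 4 rose (Fgf15, Slc51b, Sqstm1 and Nos2) and 3 fell (Slc10a2, Abcc2 and Il18), with a median change of 0.50. Without DMSO replicate 2 or 3, or tCDCA replicate 3 or 4, 3 rose and 1 fell. Nos2, the inducible nitric oxide synthase gene, kept its call only without tCDCA replicate 1 or 2 (1.78 ± 0.48, edgeR adjusted p = 0.0385). Sqstm1, an autophagy adaptor, was at 418, 344, 287 and 335 CPM with tCDCA against 192, 216 and 155 CPM with DMSO (0.75 ± 0.15, edgeR adjusted p = 0.00115). Nr0b2, which encodes the FXR-induced repressor SHP, had 0 counts in all 7 libraries, which allows up to 0.535 to 0.992 CPM by library. It had at most 4 counts in any of the 24 libraries and was not tested. Nr1h4 itself was at 27.8, 13.2, 25.1 and 20.4 CPM, against 26.3, 22.4 and 39 CPM, and did not pass (-0.46 ± 0.26, edgeR adjusted p = 0.363).

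**Figure D2:**
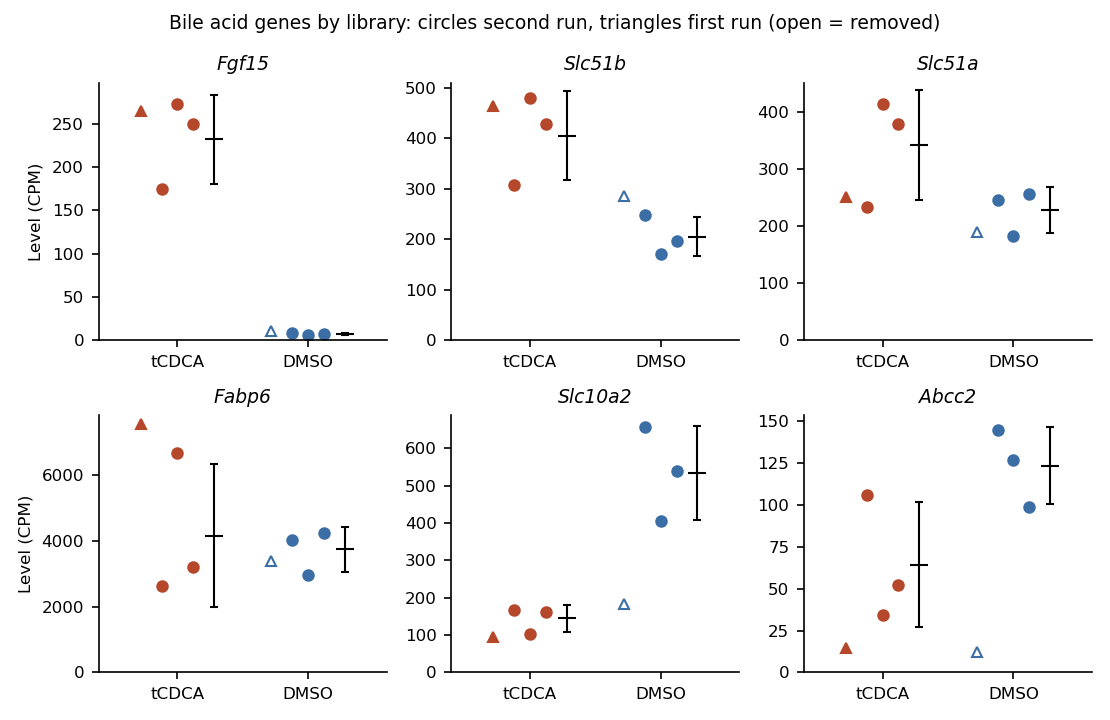
Levels of 6 bile acid genes (y axis, CPM) in tCDCA (left) and DMSO (right) libraries, with circles for the second run, triangles for the first run (open for the removed DMSO replicate 1) and bars for the mean and SD of the 3 second-run libraries. Fgf15 and Slc51b were higher and Slc10a2 lower in all tCDCA libraries used than in all DMSO libraries used, while Slc51a, Fabp6 and Abcc2 overlapped.

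Many enzymes and carriers of the brush border were lower with tCDCA. All 11 tested brush border peptidase genes fell, with changes of -2.10 to -1.02 and a median of -1.43, and 10 to 11 of them passed without any 1 library. Anpep, aminopeptidase N, was at 346, 153, 282 and 328 CPM with tCDCA against 988, 738 and 690.2 CPM with DMSO (-1.55 ± 0.22, edgeR adjusted p = 2.16e-05). Dpp4, which removes dipeptides from peptide ends, was at 117, 143, 89 and 99.8 CPM against 267, 284 and 283 CPM (-1.22 ± 0.18, edgeR adjusted p = 1.01e-05). In both genes every tCDCA library was below every DMSO library. Xpnpep2 and Naaladl1, also peptidases of the brush border, fell 2.33-fold and 2.71-fold. For Naaladl1 the removed DMSO replicate 1, at 22.4 CPM, lay within the tCDCA range (20.2 to 30.8 CPM). Mep1b, a subunit of the metalloprotease meprin, fell by 1.47 ± 0.19 (edgeR adjusted p = 3.10e-06). Its second-run libraries were at 51.8 to 83.2 CPM with tCDCA against 161 to 231 CPM with DMSO, while the first-run pair lay higher, at 249 CPM against 337 CPM in the removed DMSO replicate 1.

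Among the 4 disaccharidase genes, which encode the enzymes that cut sugars for uptake, 3 fell and none rose. The sucrase-isomaltase gene Sis was at 321, 394, 216 and 320.3 CPM, against 1245, 1299 and 817 CPM (-1.58 ± 0.28, edgeR adjusted p = 0.00137). Mgam, the maltase-glucoamylase gene, fell 2.3-fold and Treh, the trehalase gene, 3.04-fold. The lactase gene Lct, outside the naming rule, was at 0 to 13.6 CPM against 2.14 to 49.3 CPM and was not called. Of 8 sugar carrier genes 5 fell and none rose, but 2 passed without DMSO replicate 3. The sodium-coupled glucose carrier Slc5a1 was at 328, 402, 289 and 296 CPM, against 849, 881 and 674 CPM (-1.18 ± 0.20, edgeR adjusted p = 9.42e-05). Slc2a2, the basolateral glucose carrier, was at 1.49, 18, 2.61 and 4.71 CPM against 69.3, 41.2 and 68.1 CPM (-2.74 ± 0.48, edgeR adjusted p = 0.0019). The fructose carrier Slc2a5 had 4.96 to 36.6 CPM against 90.1 to 170.2 CPM (-2.76 ± 0.60, edgeR adjusted p = 0.0135). Its call was lost without DMSO replicate 3 or tCDCA replicate 4 (edgeR adjusted p = 0.0605 and 0.0502). For Slc2a2 and Slc2a5 the removed DMSO replicate 1 lay within the tCDCA range, at 2.82 and 17.7 CPM. For Slc5a1 it was at 432 CPM, above every tCDCA library.

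Of 13 amino acid and peptide carrier genes 8 fell and none rose, and 8 passed in each of the 7 fits that left out 1 library. Slc6a19, the main carrier of neutral amino acids in the brush border, was at 9.21, 72.2, 51.1 and 40.5 CPM, against 184, 249 and 265 CPM (-2.11 ± 0.21, 4.33-fold, edgeR adjusted p = 2.52e-08). The removed first-run DMSO library was low too, at 18.4 CPM. Slc15a1, the carrier of di- and tripeptides, was at 22.6, 36.3, 16.7 and 20.7 CPM, against 64.2, 121 and 79.7 CPM (-1.86 ± 0.27, edgeR adjusted p = 2.64e-05). Slc7a9 and Slc3a1, which form the cystine and dibasic amino acid carrier, fell 2.18-fold and 2.62-fold. Slc43a2, a carrier of large neutral amino acids, fell by 2.28 ± 0.27. For this gene the removed DMSO replicate 1, at 13.4 CPM, lay within the tCDCA range (9.21 to 38.3 CPM). For Slc15a1, Slc7a9 and Slc3a1 it was above every tCDCA library, at 48.2, 137 and 108 CPM.

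Carriers of ions, phosphate, vitamins and nucleosides divided: of 27 tested 12 fell, none rose and 15 were not called. Without DMSO replicate 3 or 4, or tCDCA replicate 4, 11 passed. Slc13a2, a carrier of citrate and succinate, was at 26.3, 51.6, 45.7 and 49.6 CPM with tCDCA against 191, 196 and 278 CPM with DMSO (-2.07 ± 0.22, edgeR adjusted p = 2.08e-07). The phosphate carrier Slc34a2 was at 5.5, 7.12, 3.91 and 0.942 CPM, against 25.4, 24.8 and 23.5 CPM (-2.33 ± 0.39, edgeR adjusted p = 9.59e-05). Slc13a1, the sulfate carrier, and Slc52a3, a riboflavin carrier, fell 2.02-fold and 2.70-fold. Rfk, the kinase gene that turns riboflavin into its cofactor, also fell, by 1.18 ± 0.15. The removed DMSO replicate 1 was at 27.9 CPM for Slc13a2 and 5.64 CPM for Slc34a2, close to tCDCA replicate 1. For Slc13a1 it was at 52.9 CPM, below tCDCA replicate 1 at 63.9 CPM. For Slc52a3 and Rfk it was at 27.2 and 226 CPM, above tCDCA replicate 1 at 9.8 and 156 CPM.

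Fat absorption genes fell in 12 of 24 cases and rose in none, with a median of -1.17, and 8 passed without DMSO replicate 3. Dgat1, which completes triglyceride synthesis, was at 66.9, 86.5, 80.1 and 52.1 CPM, against 119, 201 and 167 CPM (-1.17 ± 0.18, edgeR adjusted p = 3.77e-05). Tm6sf2, which helps load lipoprotein particles, fell by 1.34 ± 0.18, and Acsl5 and Slc27a4, which activate fatty acids, fell 2.04-fold and 2.82-fold. Npc1l1, the cholesterol uptake gene, was at 25.3, 39.3, 30.5 and 24.2 CPM, against 66.9, 134 and 97.4 CPM (-1.70 ± 0.25, edgeR adjusted p = 4.02e-05). It was 1 of 3 that fell among 11 sterol genes, and the count was 1 without DMSO replicate 3.

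The scaffold of the microvilli was lower in part. Of 16 genes of its cytoskeleton and adhesion 9 fell and none rose, with a median of -0.69. Of these genes 7 passed without DMSO replicate 3 or tCDCA replicate 3, and 8 without DMSO replicate 4 or tCDCA replicate 2 or 4. Espn, an actin bundler, was at 24.4, 36.6, 29.7 and 29.8 CPM, against 75.8, 95.8 and 98.6 CPM (-1.40 ± 0.19, edgeR adjusted p = 5.54e-06). Here the removed DMSO replicate 1, at 28 CPM, lay within the tCDCA range. Myo1a, the motor that ties the actin core to the membrane, fell by 1.32 ± 0.19 and Vil1, villin, by 0.92 ± 0.17. The epithelial adhesion gene Cdh1, named after its values were seen, was at 641 to 884 CPM against 605 to 708 CPM (0.10 ± 0.17, edgeR adjusted p = 0.84). Among 22 transcription factors of intestinal identity 6 fell and 2 rose, while 3 fell and none rose without DMSO replicate 3, and 3 fell and 2 rose without DMSO replicate 4. Hnf4g, an enterocyte nuclear receptor, was at 13.5, 17, 13.3 and 14.4 CPM, against 55, 39.1 and 31 CPM (-1.26 ± 0.25, edgeR adjusted p = 9.21e-04). Maf fell by 0.91 ± 0.17, with the removed DMSO replicate 1, at 414 CPM, within the tCDCA range (257 to 812 CPM). Of 18 xenobiotic enzyme genes under PXR and CAR, receptors that sense drugs and some bile acids, 7 fell and none rose. Among the 7 were the sulfotransferases Sult1b1 (-1.04 ± 0.18) and Sult1d1 (-0.95 ± 0.18). For Sult1d1 the removed DMSO replicate 1, at 44.1 CPM, lay within the tCDCA range (40.2 to 69.2 CPM). In whole fragments, fewer cells of a type and less RNA per cell cannot be told apart. Markers of other cell types were read beside these results. None of 13 smooth muscle, 14 fibroblast, 12 endothelial and 12 neuron and glia markers was called. Their medians were -0.03, -0.42, 0.12 and 0.03. Over all genes tested 5.68% were called, so lists this short would hold few calls at that share. Of the fibroblast markers, 4 were called lower without tCDCA replicate 2, 1 lower without DMSO replicate 2 and 1 higher without tCDCA replicate 1. Summed smooth muscle markers were at 1817 to 3264 CPM in second-run tCDCA libraries, against 1849 to 2759 CPM with DMSO. The sums were 589 to 834 CPM against 748 to 857 CPM for fibroblast, 152 to 188 CPM against 158 to 178 CPM for endothelial, and 65.3 to 84.5 CPM against 41.9 to 109 CPM for neuron and glia markers. Of 14 Paneth cell markers 4 rose, and the sum of the list was at 38463 to 60829.9 CPM against 27459.6 to 33271 CPM in the second run. The first-run pair had the reverse order, at 50708 CPM with tCDCA against 53938 CPM in the removed DMSO replicate 1. No Paneth marker passed without DMSO replicate 3 or 4, 1 passed without tCDCA replicate 1 or 3, and 8 passed without tCDCA replicate 4. Of 13 crypt stem cell and Wnt target genes 4 rose (median 0.57), and none passed without DMSO replicate 3. Their sum was 475 to 547 CPM against 278 to 398 CPM in the second run, and 397 CPM against 421 CPM in the first-run pair. Of 14 goblet cell markers 2 fell (median 0.24), and none passed without DMSO replicate 4, with sums of 5095 to 7098 CPM against 5847 to 7556 CPM. None of 7 tested markers each of T and NK cells and of B and plasma cells was called, with medians of -0.90 and -0.80 and sums of 14.8 to 19.8 CPM against 14.7 to 43.3 CPM and 872 to 1345 CPM against 976 to 1208 CPM. Villus tip genes had a median of -1.48, with 3 of 10 lower and none without DMSO replicate 3, and villus bottom genes 0.07. The part of these cell types in the fall of the enterocyte genes was not tested.

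**Figure D3:**
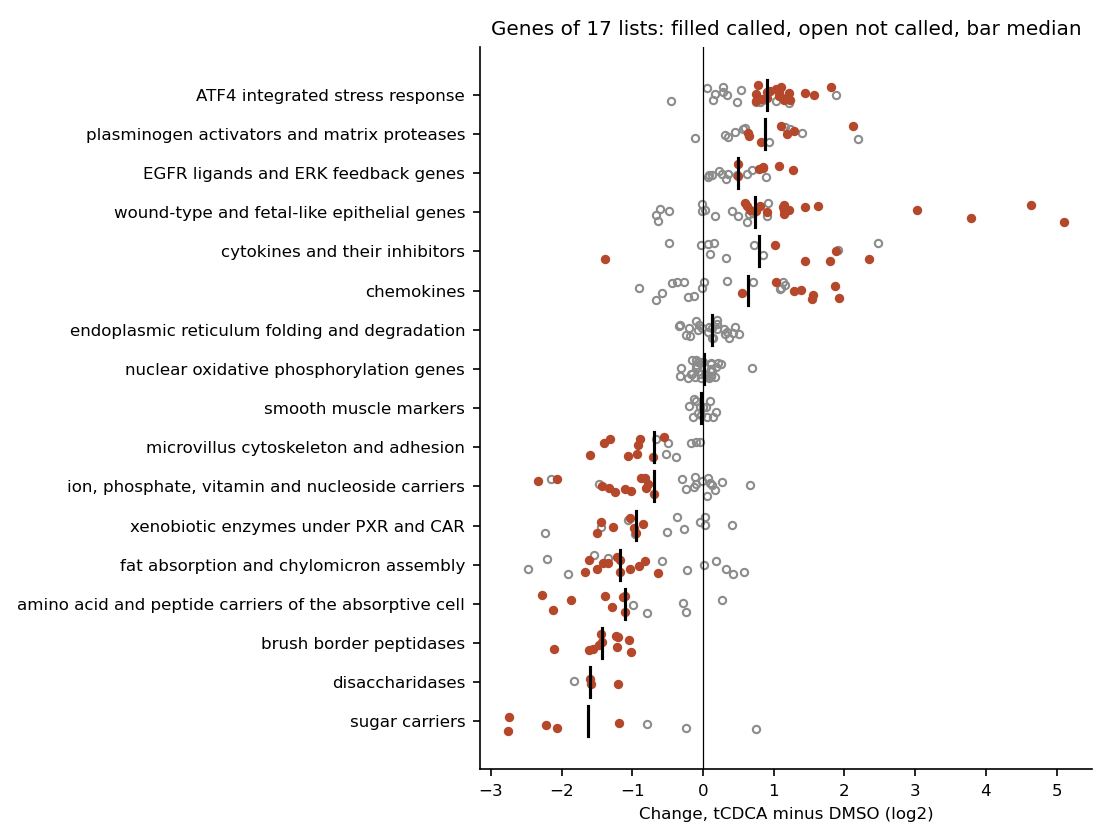
Change of each tested gene in 17 gene lists (x axis, log2, tCDCA minus DMSO), filled where the gene was called, open where not, with a bar at the list median. The lists of digestion and absorption have medians below zero, at -1.62 for sugar carriers and -1.43 for peptidases, the lists of ATF4, protease, EGFR, wound-type, cytokine and chemokine genes above it, at 0.90 for ATF4 genes, and smooth muscle markers and nuclear oxidative phosphorylation genes at -0.03 and 0.01.

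A group of genes of the integrated stress response were higher with tCDCA. In this response, lack of amino acids or another stress slows translation in general while the transcription factor ATF4 is made and switches on genes of amino acid synthesis and uptake. Of 33 tested ATF4 genes 18 rose and none fell, with a median of 0.90, and 11 passed without DMSO replicate 3. Chac1, which degrades glutathione, was at 61.4, 44.1, 76.7 and 55.3 CPM with tCDCA against 18.6, 12.2 and 17.7 CPM with DMSO (1.81 ± 0.25, 3.51-fold, edgeR adjusted p = 5.77e-06). The groups did not overlap, but the removed first-run DMSO library was at 48.4 CPM, within the tCDCA range. Psat1, of serine synthesis, was at 75.9, 45.4, 86.1 and 41.4 CPM, against 18.9, 23.8 and 19.9 CPM (1.44 ± 0.23, edgeR adjusted p = 5.95e-05), with 53.2 CPM in the removed library. Mthfd2, of mitochondrial folate metabolism, rose by 1.15 ± 0.20, with 81.2 CPM in the removed library, within its tCDCA range of 53.6 to 104 CPM.

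Amino acid carriers that ATF4 drives were among the genes that rose. Slc7a11, which imports cystine, was at 47.7, 38.7, 37.6 and 35.8 CPM, against 18.9, 12.2 and 14.1 CPM (1.21 ± 0.24, edgeR adjusted p = 0.00115), with 41.6 CPM in the removed DMSO replicate 1. Slc38a2, which imports neutral amino acids, was at 511, 841, 652 and 707 CPM, against 457, 399 and 374 CPM (0.84 ± 0.16, edgeR adjusted p = 4.18e-04). Slc7a1, the carrier of cationic amino acids, rose 2.16-fold. Glul, which makes glutamine, was at 283, 224, 194 and 299 CPM, against 105, 91.6 and 98.6 CPM (2.3-fold, edgeR adjusted p = 1.01e-05). For Slc7a1 and Glul the removed DMSO replicate 1 lay within the tCDCA range, at 54.1 and 201 CPM. For Slc38a2 it lay below that range, at 366 CPM. In other stress lists, none of 24 genes of folding and degradation in the endoplasmic reticulum was called (median 0.13), and 2 of 23 heat shock genes and 5 of 22 NRF2 antioxidant genes rose and none fell. Over all genes tested 5.68% were called and 2.52% were called higher, so lists this short would hold few calls at that share. Without DMSO replicate 3, 0 heat shock and 2 NRF2 genes passed. The stress factor gene Ddit3, singled out after its values were seen, was the 1 ATF4 gene with a change below zero (-0.46 ± 0.31, edgeR adjusted p = 0.483).

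ATF4 binds with C/EBP partners to the composite element TGATGCAA. It was looked for on both strands in RefSeq promoters of build GRCm38.p6, from 250 bases before to 50 after each start, and was found in 1.03% of 27025 genes, 0.839% of the tested genes and 2.16% of those called higher. Among the 29 tested ATF4 genes with a promoter there it was found in 8 (27.6%). Among the 15 of them called higher it was found in 3, a smaller share (20%). These were Chac1, Slc7a11 and Nupr1, the last lost without 5 of the 7 libraries in turn. The stretches around it in Chac1 (chr2:119351009-119351096, + strand) and Slc7a11 (chr3:50443614-50443719, - strand) are shown because these 2 genes held their calls without any 1 library. Capitals mark the element or its reverse complement, which ends 186 bases before the start in Chac1 and 59 and 40 bases before it in Slc7a11.
Chac1: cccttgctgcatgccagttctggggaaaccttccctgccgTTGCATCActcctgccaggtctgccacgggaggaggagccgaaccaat
Slc7a11: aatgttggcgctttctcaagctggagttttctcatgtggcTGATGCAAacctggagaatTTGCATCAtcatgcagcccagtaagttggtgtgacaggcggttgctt
A match describes these letters and shows no binding. The inverted repeat with a 1-base spacer that FXR binds was looked for in the same window, in a fixed 13-base form only. That form was found in 3 of the 27025 genes, none of them tested here. Other forms of the repeat, and sites outside the window, were not searched. The count therefore cannot show whether a gene has or lacks an FXR site. The promoter of Fgf15 was not searched.

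Of 18 genes of plasminogen activation and matrix proteolysis 7 rose and none fell, with a median of 0.88, and 4 passed without DMSO replicate 4. Plaur, the receptor of the activator urokinase, was at 96.3, 38.7, 62.9 and 48.4 CPM with tCDCA against 12.5, 8.74 and 10.8 CPM with DMSO (2.13 ± 0.26, 4.37-fold, edgeR adjusted p = 1.99e-06). Plau, urokinase itself, was at 32.7, 47.5, 48.5 and 34.9 CPM, against 18.3, 22 and 16.6 CPM (1.11 ± 0.23, edgeR adjusted p = 0.00205). Plat, the tissue-type activator, was at 203, 174, 228 and 191 CPM, against 72.7, 82.5 and 67.3 CPM (1.29 ± 0.17, edgeR adjusted p = 3.97e-06). Receptor and both activators stood above DMSO replicates 2 to 4 in every tCDCA library. For Plaur the removed DMSO replicate 1, at 46.9 CPM, lay within the tCDCA range.

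Of 18 ligands of the EGF receptor and feedback genes of the ERK pathway 7 rose and none fell, and 4 passed without DMSO replicate 4. Hbegf, a ligand, was at 245, 347, 421 and 397 CPM, against 153, 169 and 200.2 CPM (1.08 ± 0.16, edgeR adjusted p = 2.35e-05). Areg, a second ligand, was at 149, 249.6, 278 and 264 CPM, against 138, 125 and 144 CPM (0.85 ± 0.18, edgeR adjusted p = 0.00169). Fosl1, an AP-1 factor induced through ERK, rose 2.42-fold.

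The cytokine gene Lif, of the IL-6 family, was at 24.2, 46.1, 59.5 and 27 CPM with tCDCA against 7.94, 10.5 and 5.26 CPM with DMSO (2.34 ± 0.33, 5.07-fold, edgeR adjusted p = 1.01e-05). Il11, of the same family, was at 170.1, 67.5, 98.9 and 48.7 CPM, against 15.9, 26.6 and 12.7 CPM (1.80 ± 0.38, edgeR adjusted p = 0.00776), with 85.7 CPM in the removed DMSO replicate 1. Il1rn, the antagonist of the IL-1 receptor, rose 2.72-fold. Its first-run tCDCA library was at 235 CPM and the removed DMSO replicate 1 at 266 CPM, the reverse order of the second run (82.1 to 116 CPM against 29.6 to 33.6 CPM). In all 5 of 16 cytokine genes rose, and 4 passed as higher without DMSO replicate 2 or 4 or tCDCA replicate 3. Il18 fell, a call lost without DMSO replicate 2 or 3, or tCDCA replicate 3 or 4 (-1.38 ± 0.39, edgeR adjusted p = 0.0286, up to 0.113 without 1 library). Of 24 chemokine genes 8 rose and none fell. This count dropped to 2 without DMSO replicate 3 and to 3 without DMSO replicate 4 or tCDCA replicate 3. Cxcl3, a neutrophil attractant, was at 40.1, 16.6, 19.8 and 18.2 CPM, against 3.36, 6.64 and 2.77 CPM (1.87 ± 0.42, edgeR adjusted p = 0.00514), with 23.2 CPM in the removed DMSO replicate 1. Pf4, a platelet and macrophage chemokine, rose by 1.25 ± 0.21, with the removed DMSO replicate 1, at 106 CPM, within the tCDCA range (78.2 to 144 CPM). None of 4 tested neutrophil markers and 1 of 14 myeloid markers was called. Neutrophil markers summed to 11.6 to 14.1 CPM in second-run tCDCA libraries against 1.38 to 5.5 CPM with DMSO, and myeloid markers to 164 to 207 CPM against 148 to 177 CPM. Their part in these changes was not tested.

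Genes of wounded and fetal-type epithelium rose in 17 of 32 cases and fell in none, and 9 passed without DMSO replicate 3. S100a11, a calcium-binding protein gene, was at 732, 533, 460.3 and 714 CPM, against 283, 227 and 199.9 CPM (1.21 ± 0.20, edgeR adjusted p = 9.90e-05). Krt7, a keratin of simple epithelia, was at 185, 98, 131 and 121 CPM, against 60.2, 34.3 and 60.1 CPM (1.14 ± 0.19, edgeR adjusted p = 1.08e-04). In the first run both had the reverse order, with S100a11 at 732 CPM against 824 CPM and Krt7 at 185 CPM against 207 CPM in the removed DMSO replicate 1. Tinagl1, a matrix protein gene, rose by 1.13 ± 0.18, and Anxa1, annexin A1, by 1.62 ± 0.34. For both, the removed DMSO replicate 1 lay within the tCDCA range, at 118 and 54.1 CPM. Plet1 and Anxa8, singled out after their values were seen, were near zero with DMSO, at 1.22, 0 and 0.277 CPM for Plet1 and 1.22, 0.349 and 0.554 CPM for Anxa8. With tCDCA Plet1 was at 298, 19.7, 15.7 and 17 CPM and Anxa8 at 24.4, 5.09, 3.65 and 10.4 CPM. The high first-run value of Plet1 was met by 232 CPM in the removed DMSO replicate 1. For Anxa8 that library was at 7.63 CPM, within the tCDCA range.

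The first-run pair was looked at by itself, with 1 library on each side and thus no test. For the 331 genes called higher the median log2 ratio of tCDCA replicate 1 over DMSO replicate 1 was 0.20, against a fitted median of 0.91, and 249 had the same sign. For the 415 called lower it was -0.27, against -1.04, and 320 had the same sign. tCDCA replicate 1 also entered the fit, so these counts are no independent check. By list, the first-run ratio had a median of -0.50 for amino acid carriers, -0.25 for peptidases, 0.03 for disaccharidases, 0.24 for ATF4 genes and 0.68 for plasminogen and protease genes. Run, DMSO concentration and the unlabelled tCDCA dose cannot be told apart there.

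**Figure D4:**
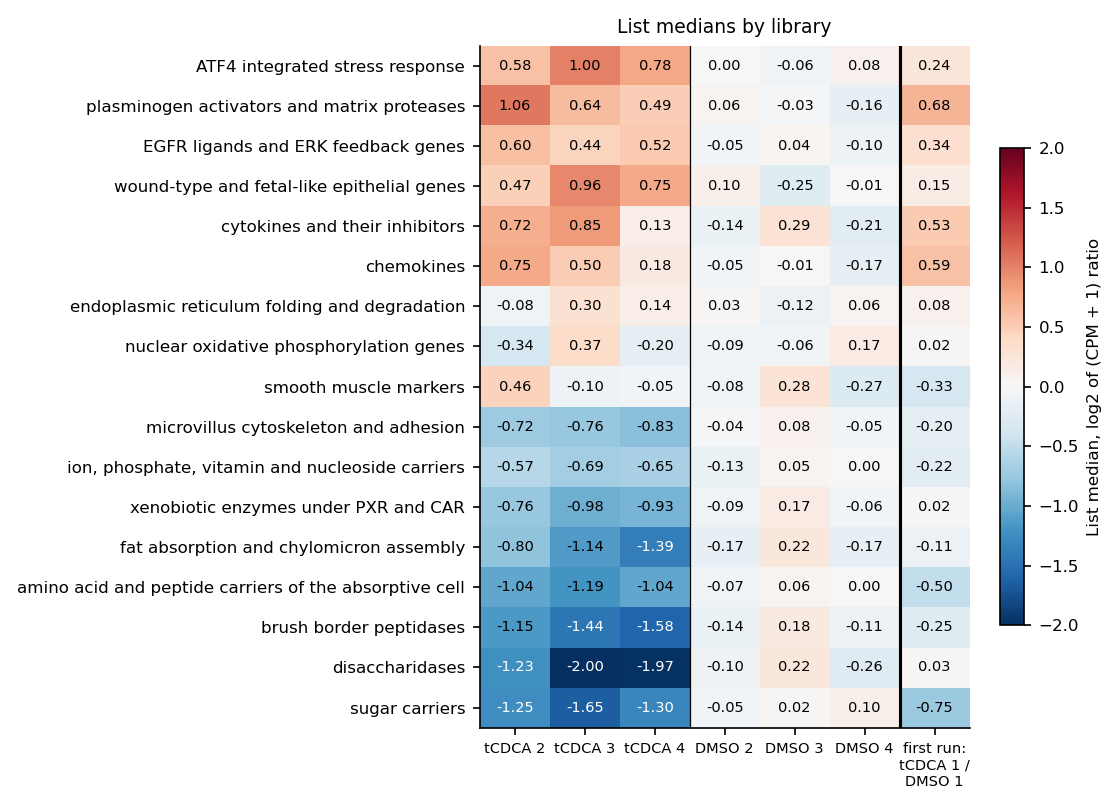
Median over each gene list of the log2 ratio of CPM + 1 to the mean of DMSO replicates 2 to 4, for each second-run library, with tCDCA on the left, and of the ratio between the first-run libraries in the last column. The 3 tCDCA libraries each lie below zero for the absorption lists (-1.04 to -1.19 for amino acid carriers) and above it for ATF4 genes (at least 0.58), and the first-run ratios are smaller in both (-0.50 and 0.24).

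To see where the response to tCDCA differed from that to bile acid extracts, tCDCA was set against each CME(-) group. The same tCDCA libraries enter these comparisons and the one with DMSO. Against WT CME(-), 71 genes were called, 0.541% of those tested, with 35 (0.267%) higher and 36 (0.274%) lower. The count was 30 to 135 without 1 library. It was 135 without tCDCA replicate 1, 36 without replicate 1 of the extract or tCDCA replicate 3, 30 without tCDCA replicate 4, and 42 and 32 without replicates 3 and 4 of the extract. Against Asbt-/- CME(-), 15 genes were called, 0.114%, with 6 (0.0457%) higher and 9 (0.0686%) lower. Here the count was 54 and 58 without replicate 1 of tCDCA and of the extract, 6, 4 and 4 without tCDCA replicates 2, 3 and 4, and 0 and 2 without replicates 2 and 4 of the extract. For the edgeR count of 0, 789 of 13750 genes had an unadjusted p under 0.05, where a share of 0.05 is expected with no difference at all. DESeq2 called 68 with every library in.

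Fgf15 was at 265, 174, 272 and 249 CPM with tCDCA, against 312, 175, 125 and 105 CPM with WT CME(-) and 317, 329 and 216 CPM with Asbt-/- CME(-). Neither difference passed (0.47 ± 0.26 and -0.23 ± 0.28, edgeR adjusted p = 0.551 and 0.909). Slc10a2 did not pass either, at -0.46 ± 0.20 against WT CME(-) and -0.66 ± 0.22 against Asbt-/- CME(-) (edgeR adjusted p = 0.402 and 0.313). Lif was higher with tCDCA than with WT CME(-), at 24.2, 46.1, 59.5 and 27 CPM against 9.66, 11.8, 16.2 and 16.2 CPM (1.55 ± 0.28, edgeR adjusted p = 0.00349, at most 0.0416 without any 1 library). Against Asbt-/- CME(-), at 17.8, 7.3 and 10.6 CPM, it was higher by 1.62 ± 0.32 (edgeR adjusted p = 0.0282), a call lost without replicate 2 or 4 of the extract or replicate 2 or 3 of tCDCA, with an edgeR adjusted p of up to 0.473. Pf4, Plau, Ackr1, Mmp13 and Ccl7 were also higher than with WT CME(-) in every fit that left out 1 library, by 1.04 to 2.09. Against Asbt-/- CME(-), Ackr1 (0.47), Plau (0.82), Ccl7 (1.29) and Mmp13 (1.31) were not called, with an edgeR adjusted p of 0.786, 0.176, 0.123 and 0.115. Pf4 was called there (0.99 ± 0.21, edgeR adjusted p = 0.0311), but kept the call in 2 of 7 fits, those without replicate 1 of either group.

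Some brush border genes were lower with tCDCA than with the WT extract as well, while most did not pass. Called lower than with WT CME(-) were 4 of 11 peptidases, 1 of 4 disaccharidases, 0 of 8 sugar carriers, 2 of 13 amino acid carriers and 2 of 16 microvillus genes. Outside the peptidases, Slc6a19 kept the call in all 8 fits without 1 library. Mgam kept it in 4 of these fits, Espn in 3, Slc43a2 in 2 and Pls1 in 1. Anpep was at 346, 153, 282 and 328 CPM with tCDCA against 763, 590.2, 514 and 757 CPM with WT CME(-) (-1.24 ± 0.20, edgeR adjusted p = 0.00199), and the groups did not overlap. Slc6a19 was at 9.21, 72.2, 51.1 and 40.5 CPM, against 24.5, 92.8, 84.8 and 128 CPM (-1.02 ± 0.19, edgeR adjusted p = 0.00506). The other peptidases called against WT CME(-), Dpp4, Xpnpep2 and Naaladl1, each kept the call in 5 of the 8 fits without 1 library, with an edgeR adjusted p of up to 0.0703, 0.174 and 0.102. Dpp4 and Naaladl1 lost it without replicate 1 or 4 of the extract or tCDCA replicate 4, and Xpnpep2 without replicate 1 of the extract or tCDCA replicate 3 or 4. Naaladl1 was the 1 peptidase called lower than with Asbt-/- CME(-), and lost that call without replicate 2 or 4 of either group (edgeR adjusted p up to 0.473). Neither Anpep nor Slc6a19 passed against Asbt-/- CME(-) (-0.75 ± 0.22 and -0.40 ± 0.21, edgeR adjusted p = 0.209 and 0.648). Prlr, Dbp and Acta1 were lower than with both extracts. Prlr, the prolactin receptor gene, was at 18.6, 22.7, 15.7 and 20.4 CPM, against 37.6, 42.4, 51 and 55.9 CPM with WT CME(-) and 23.1, 46.5 and 68.6 CPM with Asbt-/- CME(-) (-1.24 ± 0.21 and -1.19 ± 0.22). Dbp, a clock output gene, was lower by 1.69 ± 0.27 and 1.77 ± 0.29, and Acta1, the skeletal muscle actin gene, by 2.09 ± 0.30 and 1.83 ± 0.31. These 3 kept the call against WT CME(-) in all 8 fits without 1 library. Against Asbt-/- CME(-), Dbp lost it without replicate 2 of the extract (edgeR adjusted p = 0.087), Acta1 without replicate 2 or 4 of the extract, and Prlr without either of these or tCDCA replicate 3 or 4.

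**Figure D5:**
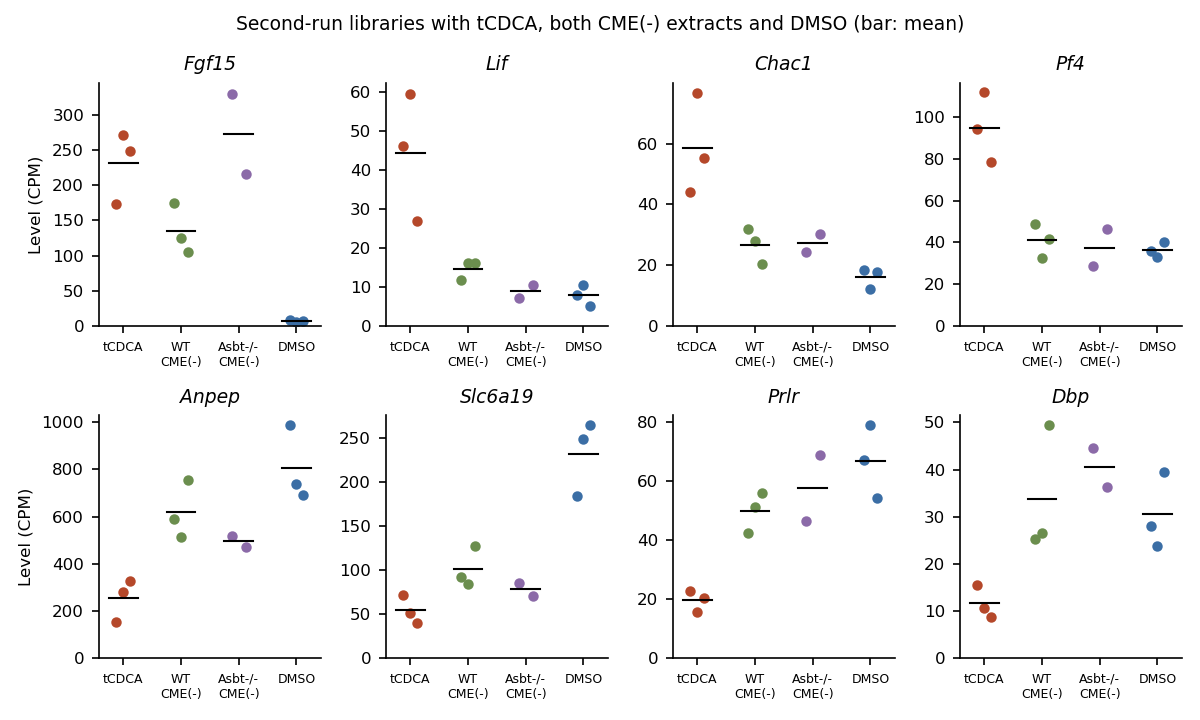
Levels of 8 genes (y axis, CPM) in second-run libraries with tCDCA, WT CME(-), Asbt-/- CME(-) and DMSO, with a bar at each mean. Fgf15 was far above DMSO in the tCDCA and both CME(-) groups, while Lif, Chac1 and Pf4 had their highest and Anpep, Slc6a19, Prlr and Dbp their lowest mean with tCDCA, and for Slc6a19 1 tCDCA library (72.2 CPM) lay above 1 of Asbt-/- CME(-) (70.9 CPM).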

How the data were processed

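The authors deposited raw counts, 1 whole number per gene and library. Reads were handled with cutadapt, HISAT2, FastQC and Picard on build GRCm39, per the submitters' processing notes, without versions. How reads were counted, and on which strand and annotation, is not given in the sources used here. Overlapping and antisense genes are therefore uncertain, as are near-identical families (defensins, MHC class I genes, ribosomal proteins, Slc5a4b). Per the labels' protocols, 100 ng of total RNA went into QuantSeq 3' libraries. Symbols from GENCODE M21 named 51884 of 57126 identifiers, with 88.4% of the counts.

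edgeR 4.0.16 in R 4.3.3 fitted a robust quasi-likelihood model with group and run to the 21 libraries not marked as removed, after filterByExpr and TMM scaling. P-values were adjusted by the Benjamini-Hochberg method over 13125 genes, tests were two-sided, and standard errors were taken from the test statistic. The biological coefficient of variation was 0.266. Levels are CPM scaled over all 24 libraries. The model was tested on simulated data. The members and the 67 gene lists were chosen with earlier results of these data known. The rule for named genes took 7 bile acid genes, the 20 called genes with the smallest p in each direction, and up to 6 called members per direction of each list, and part of them is given. limma 3.58.1 (voom) and DESeq2 1.42.0 served as alternatives. Some results are not reported here.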

Additional observations from a re-analysis of the deposited data

Results flagged for a closer look

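In 6 of 173 genes tested for this, 1 of the 4 tCDCA libraries lay far from the other 3 on run-adjusted log2 CPM, where chance alone gives about 1 group in 20. Cck was at 5.05 in replicate 2, against 5.67 to 5.76 in the others. Fcgbp was at 7.15 in replicate 2, against 6.84 to 6.87. Enpep was at 6.78 in replicate 3, against 7.00 to 7.01. Klf5 was at 9.64 and Oasl2 at 4.15 in replicate 4, against 9.40 to 9.44 and 5.01 to 5.04. Pls1 was at 7.82 in replicate 1, against 7.09 to 7.20.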

How the results depend on the processing

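For tCDCA against DMSO, 427 genes were called on library sizes alone (229 higher, 198 lower), which moved the median of all genes by 0.13. The count was 298 in the compared groups alone and 197 there without run, 418 with all 24 libraries, 176 without the run term (50 higher, 126 lower) and 464 with DMSO replicate 1 added. It was 327 to 812 without 1 library. Against WT CME(-) the 71 calls became 196 with no filter, 176 with DESeq2, 17 in the compared groups alone (0 there without run), 39 with all 24 libraries, 0 without the run term, and 30 to 135 without 1 library. Against Asbt-/- CME(-) the 15 became 0 on library sizes alone, 78 with no filter, 68 with DESeq2, 2 in the compared groups alone (0 there without run), 80 in second-run libraries only, 0 without the run term, and 0 to 58 without 1 library. For the edgeR counts of 0, unadjusted p was under 0.05 in 496 of 10980 and 711 of 13125 genes against WT CME(-) (alone and without run). Against Asbt-/- CME(-) it was so in 917 of 13125, 324 of 11485 and 546 of 13125 (library sizes, alone, without run). With no difference at all a share of 0.05 is expected, and 496, 324 and 546 lie below it. The cause was not tested, beyond that smaller fits hold fewer samples. Deviations of same-numbered tCDCA and DMSO libraries correlated at 0.07, -0.09 and -0.08, and those of other pairs at -0.19 to 0.24. Not every library correlated best with its own number. With 3 second-run libraries per group, this cannot decide whether the numbers pair them. A replicate block gave 650 calls against DMSO, 62 against WT CME(-) and 4 against Asbt-/- CME(-), and in the compared groups alone 237, 17 and 2. Fabp6, not called, changed sign to -0.01 without DMSO replicate 3, -0.24 without tCDCA replicate 3 and -0.13 with voom weights, and was at most 0.30 without 1 library. Cdh1, not called, was at -0.02 with all 24 libraries or DMSO replicate 1 added, and at -0.03 to 0.16 without 1 library. Of 166 called genes examined singly, 166 kept their call with DESeq2, 154 in second-run libraries only, 160 with the block and 69 without run. At 3.02 to 5.6 M counts per library, genes at a few counts could not be compared.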

Other observations

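Of 17 circadian clock genes 3 fell with tCDCA and none rose. Dbp, a clock output factor gene, was at 1.78, 15.6, 10.7 and 8.79 CPM with tCDCA, against 28.1, 23.8 and 39.6 CPM with DMSO (-1.50 ± 0.28, edgeR adjusted p = 5.70e-04), and the removed first-run DMSO library was at 1.99 CPM. Per2 fell by 0.96 ± 0.21, and Per3 by 1.81 ± 0.44, a call lost without DMSO replicate 2 (edgeR adjusted p = 0.0783). Of 18 enteroendocrine genes 4 rose (Tac1, Vgf, Gcg and Cck), the calls of Gcg and Cck being lost without DMSO replicate 4 and without DMSO replicate 2 or 3. Tac1, which encodes substance P, was at 364, 38.3, 69.7 and 45.5 CPM with tCDCA, against 14.4, 21 and 17.4 CPM with DMSO (1.42 ± 0.25, edgeR adjusted p = 5.06e-04), with 271 CPM in the removed DMSO replicate 1. Vgf, a neuropeptide precursor gene, was at 3.71, 10.9, 20.1 and 27.9 CPM, against 3.97, 4.89 and 2.49 CPM (2.20 ± 0.43, edgeR adjusted p = 7.53e-04). Irf7, an interferon regulator, fell by 1.39 ± 0.24, as 1 of 2 among 30 interferon-stimulated genes, beside 3.16% of all genes tested. Without DMSO replicate 3 or 4, or tCDCA replicate 4, 1 gene of that list passed. In the first run the median ratio of that list was 0.64, with 26 of 30 above zero. Ctss, cathepsin S, fell by 0.96 ± 0.18, as the 1 called among 10 MHC class II genes. No gene of 32 in the nuclear list of oxidative phosphorylation was called, beside 5.68% of all genes tested, a share at which such a list would hold few calls. Of 30 ribosomal protein genes 6 rose, while none passed without DMSO replicate 3, 1 without DMSO replicate 2 or tCDCA replicate 3, 11 without DMSO replicate 4 and 16 without tCDCA replicate 2.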
